A study of Mus musculus with 15 samples.

Results

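The GIMAP genes encode GTPases of immunity-associated proteins, a family of GTP-binding proteins found mainly in lymphocytes and also in endothelial cells. The members were the 8 genes with the symbols Gimap1, Gimap3, Gimap4, Gimap5, Gimap6, Gimap7, Gimap8 and Gimap9 in the annotation of the array, out of 18193 genes measured. All 8 were among the 11871 genes that passed the filter for testing, which required a signal above the array median in at least 3 arrays. Of the 8, 7 were above the median in all 15 arrays. Gimap4 passed through 12 arrays and lay below the median in every PreDP array.

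RNA from sorted mouse thymocytes on a C57BL/6 background was hybridised to arrays in 5 groups with 3 samples each. The PreDP and PostDP groups were double-positive thymocytes, bearing CD4 and CD8, from B2m-/- mice, which lack the light chain of MHC class I, and were sorted as negative (PreDP) or positive (PostDP) for both CD69 and TCRβ. Tak1-deficient SM&M1 cells were Qa2-negative, CD69-positive CD4 single-positive thymocytes of Tak1f/f CD4Cre mice, in which Cre under Cd4 control deletes the kinase gene Tak1 (Map3k7) from the double-positive stage. SM&M1 cells carried the same surface markers, and M2 cells were Qa2-positive and CD69-negative, both from Rag2-GFP BAC transgenic mice and sorted without NK1.1, CD25 or GL3 staining. The labels name this exclusion for the Rag2-GFP mice alone, so the sorts of the other groups may have kept cells with these markers. The labels give no age beyond young adult. PostDP and SM&M1 samples therefore differed in mouse line as well as in stage, and Tak1-deficient and control SM&M1 samples in line as well as in Tak1, so that stage or Tak1 and line cannot be told apart. In these bulk samples, fewer cells of a type and less RNA per cell cannot be told apart either.

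The arrays had been put on a common scale, with a trimmed mean signal of 500 in each. Map3k7 averaged 5.39 ± 0.65 in Tak1-deficient SM&M1 and 10.42 ± 0.03 in SM&M1 on the log2(signal + 16) scale (SD, n = 3 each), the scale of every log2 level below. B2m averaged 9.67 in PreDP and 10.10 in PostDP, where single arrays of the other groups lay between 13.88 and 14.85. Among the arrays, replicate 2 of Tak1-deficient SM&M1 was unlike the rest, with a median of 167.81 signal units, where the other 14 had 80.52 to 121.46. The lowest correlation between arrays of this group was 0.873, and that within any other group was 0.965. Of 10 T lineage markers 7 were measured, and 6 or 7 of them lay above the array median in every array. The SM&M1 and M2 arrays all had high levels of both Xist (at least 13.06) and the Y-linked Eif2s3y (at least 9.62), while the other groups held arrays with Xist as low as 7.19 or Eif2s3y as low as 4.10. The sum of 7 endothelial markers ranged from 954 to 1511 signal units in PreDP, 1106 to 1432 in PostDP, 1184 to 1807 in Tak1-deficient SM&M1, 1117 to 1408 in SM&M1 and 1367 to 1650 in M2. At most 3 of these 7 markers exceeded the array median in any array. Pecam1, at 9.36 to 10.18, did so in every array, Kdr and Egfl7 in most, and Cdh5, Tek, Emcn and Tie1 in none. Kdr was at 5.35 to 7.37 in PreDP and at 7.13 to 8.58 in the other groups. The endothelial receptor gene Tie1 stayed between 4.12 and 4.25, next to the floor that the added 16 sets.

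GIMAP proteins sit on intracellular membranes or in the cytosol, and several are known for controlling how long lymphocytes survive. In mice and rats, loss of Gimap5 shortens the life of peripheral T cells and causes lymphopenia, and in mice mature T and B cells depend on Gimap1. Gimap6 takes part in autophagy through the LC3-like protein GABARAPL2, Gimap4 has been linked to the onset of T cell death, and Gimap3 is a close paralog of Gimap5 in the mouse. Gimap8 differs from the others in carrying several GTP-binding domains, and human GIMAP7 can activate the GTPase of another member. The function of Gimap9 is little described.

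The genes lie next to each other on chromosome 6 in the order Gimap8, Gimap9, Gimap4, Gimap6, Gimap7, Gimap1, Gimap5 and Gimap3, with no other protein-coding gene between them in the RefSeq table. Each had a RefSeq promoter window (GRCm38.p6, 250 bases before to 50 after the gene start), and Gimap8 had 2. The windows of Gimap4, Gimap7 and Gimap3, whose signals followed each other most closely, are shown with that of Gimap1, which ran against them. They lie at chr6:48684328-48684627 on the plus strand for Gimap4, chr6:48718371-48718670 on the plus strand for Gimap7, chr6:48770802-48771101 on the minus strand for Gimap3 and chr6:48738797-48739096 on the plus strand for Gimap1. Capitals mark matches, on either strand, to 3 of the 8 motifs searched: CACCC (KLF), TGTGGT (RUNX) and TGTTTAC (FOXO).
Gimap4: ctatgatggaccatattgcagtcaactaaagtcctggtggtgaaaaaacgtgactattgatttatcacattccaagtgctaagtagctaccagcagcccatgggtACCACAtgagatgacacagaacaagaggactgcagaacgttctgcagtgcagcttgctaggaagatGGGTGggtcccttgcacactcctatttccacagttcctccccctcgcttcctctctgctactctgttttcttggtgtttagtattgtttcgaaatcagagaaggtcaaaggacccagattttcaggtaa
Gimap7: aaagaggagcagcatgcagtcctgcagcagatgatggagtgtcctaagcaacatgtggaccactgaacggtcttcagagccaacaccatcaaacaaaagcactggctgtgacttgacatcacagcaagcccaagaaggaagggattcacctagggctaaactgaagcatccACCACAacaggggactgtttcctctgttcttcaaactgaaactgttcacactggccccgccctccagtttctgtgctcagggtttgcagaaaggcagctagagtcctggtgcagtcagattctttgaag
Gimap3: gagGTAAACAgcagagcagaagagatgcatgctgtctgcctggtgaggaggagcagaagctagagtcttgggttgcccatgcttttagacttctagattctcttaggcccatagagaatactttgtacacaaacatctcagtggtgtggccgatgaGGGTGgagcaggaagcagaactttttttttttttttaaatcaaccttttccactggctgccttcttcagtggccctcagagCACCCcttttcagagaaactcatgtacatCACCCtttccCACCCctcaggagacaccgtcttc
Gimap1: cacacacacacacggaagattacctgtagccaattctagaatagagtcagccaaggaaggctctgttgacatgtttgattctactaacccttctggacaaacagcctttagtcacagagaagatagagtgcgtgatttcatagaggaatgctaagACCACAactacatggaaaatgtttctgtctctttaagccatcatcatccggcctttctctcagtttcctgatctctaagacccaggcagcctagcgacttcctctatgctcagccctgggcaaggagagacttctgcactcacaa
No matches overlapped within a window. CACCC was found in 6 of the 9 GIMAP windows and in 57.5% of all 32851 promoter windows, and Gimap3 held 4 matches to it. Both Gimap8 windows are among the 6, and as these windows overlap, they share 1 match. TGTGGT was found in 3 GIMAP windows, those of Gimap4, Gimap7 and Gimap1, and in 16.8% of all windows. TGTTTAC was found in 1, that of Gimap3, and in 3.65% of all windows. The letters CCGGAA (ETS, 14.9% of all windows), CAGCTG (E-box, 16.3%), GGANTTTCC (NF-κB, 1.25%), GAAANNGAA (interferon response, 8.56%) and CTTTGAT (TCF, 3.73%) were in none of the 9. A match describes the letters and does not show that a factor binds.

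**Figure D1:**
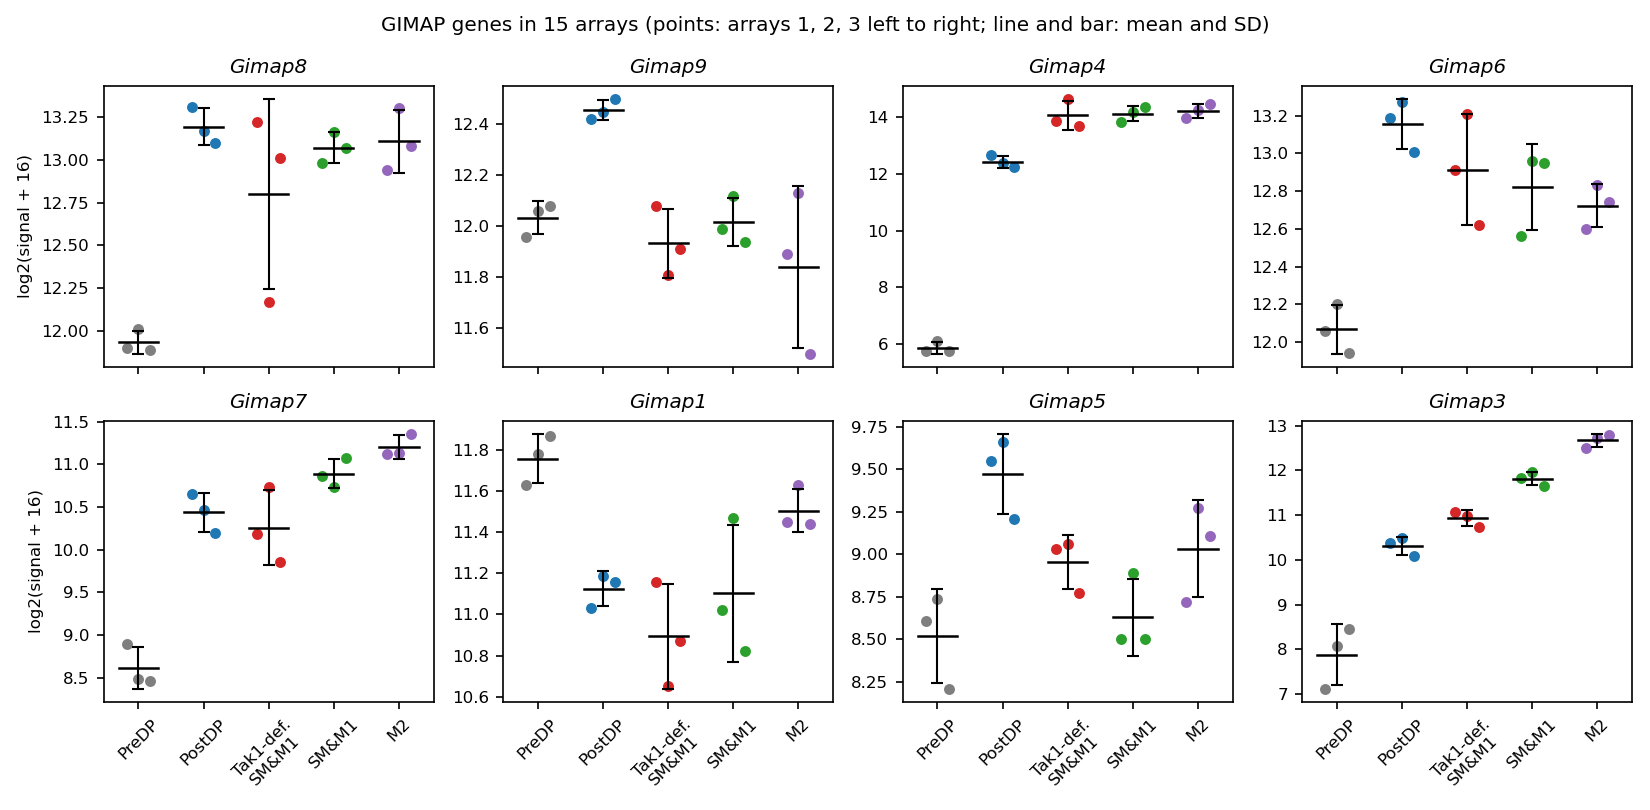
Signal of the 8 GIMAP genes in each of 15 arrays as log2(signal + 16) on the vertical axes, which differ between panels, with 5 groups of 3 arrays along the horizontal axes; lines and bars give the mean and SD. Gimap4, Gimap7 and Gimap3 are low in PreDP and high in SM&M1 and M2. The highest mean is in PostDP for Gimap5, Gimap6, Gimap8 and Gimap9, and in PreDP for Gimap1.

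The comparison of PostDP with PreDP covers the step at which double-positive thymocytes receive their first T cell receptor signals. Of the 8 GIMAP genes, 6 rose, 1 fell and 1 did not pass. Across all genes tested 7.35% were called higher and 7.57% lower at an adjusted p under 0.05. The median log2 fold change of the 8 was 1.18, where the median of all genes was 0.01. The 2 groups did not overlap for any of the 8, as for 38.7% of all genes, and all 8 had an unadjusted p under 0.05, as did 25.7% of all genes.

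Gimap4 showed the largest change of the family. Its signal was 6412, 5258 and 4755 in PostDP samples, against 38, 54 and 38 in PreDP samples. The PreDP values lay below the median of their arrays and the PostDP values far above it. The log2 fold change was 6.53 ± 0.25 (SE, 3 samples in each group, limma adjusted p = 2.41e-09), and its rank by p among all genes tested was 4. The PreDP signals were at the 28.2 to 37.2 percentile of their arrays and are not shown to be above background, so the size depends on the added 16 and is no exact fold. With 1 added in its place the value was 6.95. A second probe set of Gimap4 rose by 5.33 ± 0.22 (adjusted p = 4.38e-09 in a limma fit of 21488 probe sets).

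Gimap3 and Gimap7 rose next most. Gimap3 had a signal of 1303, 1408 and 1073 in PostDP, against 123, 255 and 334 in PreDP, a rise of 2.43 ± 0.27 on the log2 scale (limma adjusted p = 4.04e-05). Its PreDP samples varied most, with an SD of 0.69, but all of them were below all PostDP samples. Gimap7 had a signal of 1592, 1405 and 1163 in PostDP, against 463, 343 and 335 in PreDP, and rose by 1.83 ± 0.22 (adjusted p = 7.56e-05).

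Gimap8, Gimap6 and Gimap5 rose by smaller amounts from levels that were already above the array median. Gimap8 ranged from 8785 to 10170 in PostDP and from 3782 to 4100 in PreDP, a rise of 1.27 ± 0.22 (limma adjusted p = 0.00152). Gimap6 ranged from 8221 to 9896 in PostDP and from 3917 to 4696 in PreDP, a rise of 1.09 ± 0.18 (adjusted p = 0.000877), and its other probe set rose by 1.79 ± 0.30. The survival gene Gimap5 had a signal of 731, 794 and 575 in PostDP, against 374, 411 and 279 in PreDP, and rose by 0.95 ± 0.20 (adjusted p = 0.00575).

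Gimap1 moved the other way. Its signal was 2074, 2321 and 2280 in PostDP, against 3152, 3507 and 3724 in PreDP, with a log2 fold change of -0.63 ± 0.18 (limma adjusted p = 0.0327). This call was lost when any 1 of PreDP replicates 2 and 3 or PostDP replicates 1, 2 and 3 was left out (adjusted p = 0.0907, 0.103, 0.11, 0.0726 and 0.0819), and the fold change then ranged from -0.66 to -0.58. Gimap9 was between 5465 and 5765 in PostDP and between 3968 and 4315 in PreDP. Its log2 fold change of 0.42 ± 0.16 did not pass (adjusted p = 0.104), but did without Tak1-deficient SM&M1 replicate 2, which enters the shared error (adjusted p = 0.048).

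Centring each array on its median moved the median of all genes in this comparison to -0.13 and the share of calls that were higher to 36.1%, against 49.3%. In that setting Gimap8 (1.12, adjusted p = 0.0552), Gimap5 (0.81, adjusted p = 0.0934) and Gimap1 (-0.78, adjusted p = 0.113) were not called. Replicate numbers paired these samples, and when PreDP and PostDP were fitted alone with a replicate block, 2703 of all genes were called, against 1772, and 7 GIMAP genes as before. Some marker sums moved with this step. The sum of 8 effector or memory T cell markers was 5321 to 6436 signal units in PostDP and 933 to 1093 in PreDP, with 3 to 5 of the 8 above the array median in PostDP and 2 in PreDP. That of 13 macrophage markers was 995 to 1030 in PostDP and 588 to 845 in PreDP. The sum of 5 B cell markers was 733 to 954 in PostDP and 1669 to 2084 in PreDP. Cd79b had log2 levels of 8.36 to 8.79 in PostDP and 10.38 to 10.83 in PreDP. The other B cell markers were at 5.09 to 7.83 and 5.06 to 7.87. The sum of 6 innate-like T cell markers was 924 to 1016 in PostDP and 2877 to 4503 in PreDP. Above the array median lay 3 to 4 B cell markers in PostDP and 2 to 3 in PreDP, and 3 and 1 to 2 innate-like markers. For neither list were more markers above the median in PreDP than in PostDP. The part of these sums in the result was not tested.

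**Figure D2:**
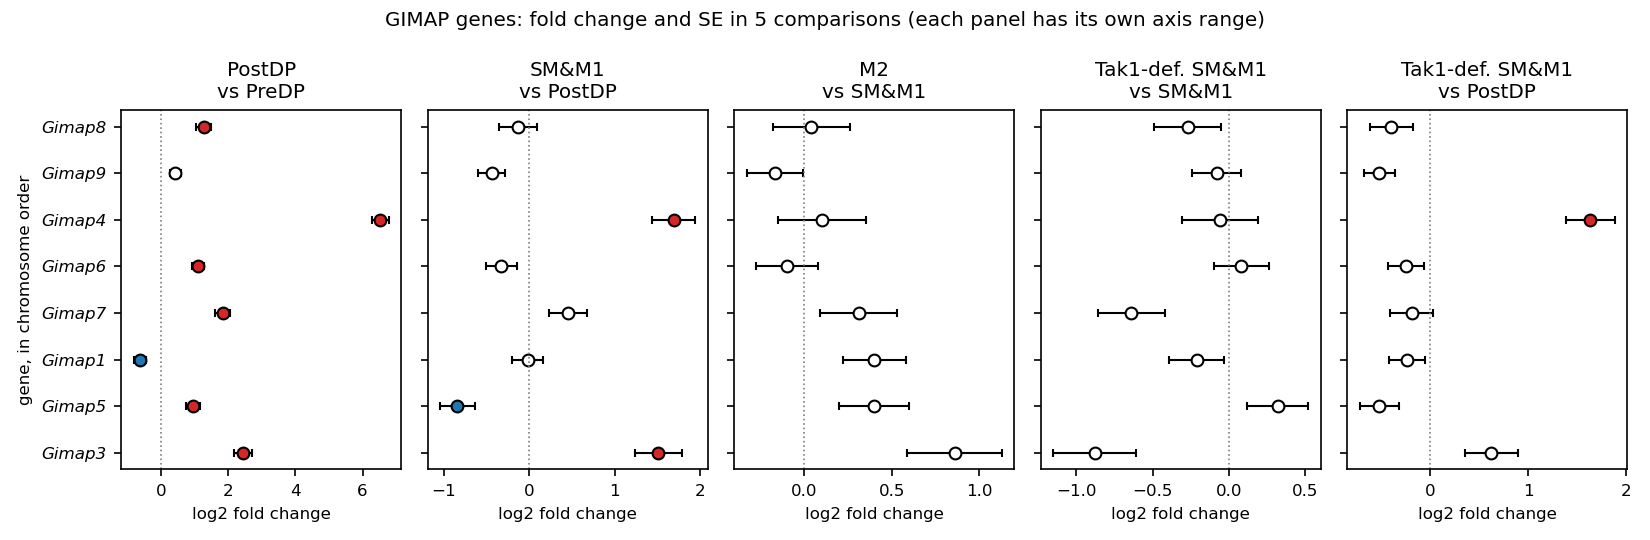
Log2 fold change of the 8 GIMAP genes on the horizontal axes in 5 comparisons, 1 per panel, with the SE of the limma fit as bars; red and blue points were called higher and lower at an adjusted p under 0.05 and white points were not. Calls are most frequent in PostDP against PreDP, where Gimap4 lies at 6.53.

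The comparison of SM&M1 with PostDP spans the change from double-positive to CD4 single-positive cells. Here the family split: 2 members rose, 1 fell and 5 did not pass, where 7.84% of all genes were called higher and 4.14% lower. The median of the 8 was -0.08, against 0.03 for all genes. Gimap4 and Gimap3 rose again, and Gimap5 fell.

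Gimap4 had a signal of 14340, 18456 and 20526 in SM&M1, above the 3 PostDP values given before. It rose by 1.69 ± 0.25 in log2 terms (SE, 3 samples in each group, limma adjusted p = 0.000631), and by 1.91 ± 0.22 in its other probe set. Gimap3 had a signal of 3629, 3966 and 3220 in SM&M1 and rose by 1.51 ± 0.27 (adjusted p = 0.00254). Every SM&M1 sample lay above every PostDP sample for both genes.

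Gimap5 had a signal of 346, 458 and 347 in SM&M1, below the 575 to 794 of PostDP and overlapping the 279 to 411 of PreDP. Its log2 fold change was -0.84 ± 0.20 (limma adjusted p = 0.016). This comparison shares the PostDP arrays with the one before, so the rise and the fall of Gimap5 are not independent of each other. The call was lost without PostDP replicate 1 or 2 or without SM&M1 replicate 1 or 3 (adjusted p = 0.0578, 0.0743, 0.0664 and 0.0689), and with each array centred on its median (adjusted p = 0.119). Probe sequences were not used here, so whether the probe sets of the paralogs Gimap5 and Gimap3 share signal was not tested.

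The other 5 members did not pass. Gimap7 had a signal of 1855, 1699 and 2133 in SM&M1, above all PostDP samples, but its log2 fold change of 0.45 ± 0.22 did not pass (limma adjusted p = 0.228). The other probe set of Gimap7 was at 0.14 ± 0.42. Gimap9 had a log2 fold change of -0.44 ± 0.16 and also did not overlap between groups, without passing (adjusted p = 0.0976). It passed without Tak1-deficient SM&M1 replicate 2 (adjusted p = 0.0428) and when SM&M1 and PostDP were fitted alone without a replicate block (adjusted p = 0.0364), but not with the block (adjusted p = 0.088). Gimap6 (-0.33 ± 0.18), Gimap8 (-0.13 ± 0.22) and Gimap1 (-0.02 ± 0.18) had smaller log2 fold changes. The groups did not overlap for 6 of the 8 members, as for 40.9% of all genes, and 4 members had an unadjusted p under 0.05, as did 24.5% of all genes. The macrophage marker sum was 4817 in SM&M1 replicate 1 and 708 and 908 in the other SM&M1 samples, against 995 to 1030 in PostDP. The effector or memory marker sum was 7983 to 11830 in SM&M1 and 5321 to 6436 in PostDP, without overlap. In SM&M1 replicate 1 all 8 of these markers lay above the array median, and in replicates 2 and 3 only 3 did. In PostDP 3 to 5 did so. The median log2 level of the 8 was 8.42, 6.47 and 6.51 in SM&M1 and 6.81 to 7.10 in PostDP, so the sums and the medians differed in order. The innate-like marker sum was 3684 in SM&M1 replicate 1 and 420 to 461 in the other SM&M1 samples, against 924 to 1016 in PostDP. The part of these sums in the result was not tested.

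The comparison of M2 with SM&M1 covers the last maturation step before cells leave the thymus. None of the 8 GIMAP genes passed in limma over all groups, and 2 had an unadjusted p under 0.05, where 2.33% of all genes were called, 0.952% higher and 1.38% lower, and 10.3% had such a p. The groups did not overlap for 2 members, Gimap3 and Gimap7, as for 23.6% of all genes. Gimap3 had the largest difference. Its signal was 5812, 6727 and 7079 in M2, against 3629, 3966 and 3220 in SM&M1, and every M2 sample was above every SM&M1 sample. The log2 fold change was 0.86 ± 0.27 (SE, n = 3 per group, adjusted p = 0.16). Replicate numbers paired these samples, and Gimap3 passed when M2 and SM&M1 were fitted alone with a replicate block (adjusted p = 0.0428, with 594 of all genes called, against 277). It also passed there without the block (adjusted p = 0.0235), and in the fit of all groups without PreDP replicate 1 (adjusted p = 0.0212).

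Gimap7 had a signal of 2202, 2221 and 2606 in M2 and again did not overlap with SM&M1, with a log2 fold change of 0.31 ± 0.22 (limma adjusted p = 0.832). Gimap1 and Gimap5 both had a log2 fold change of 0.40, with SEs of 0.18 and 0.20 (adjusted p = 0.474 and 0.575). Gimap4 had a signal of 15919, 19164 and 22032 in M2, close to the SM&M1 values, and a log2 fold change of 0.10 ± 0.25 (adjusted p = 0.996). For Gimap8, Gimap6 and Gimap9 the log2 fold changes were 0.04, -0.10 and -0.17. Replicate 1 of both groups had a high sum of the 13 macrophage markers, 5159 in M2 and 4817 in SM&M1, where replicates 2 and 3 had 894 to 1022 in M2 and 708 to 908 in SM&M1. The effector or memory marker sum was 6729 to 7895 in M2 and 7983 to 11830 in SM&M1, without overlap. In either group 3 to 8 of these 8 markers lay above the array median. The part of these sums in the values was not tested.

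The comparison of Tak1-deficient SM&M1 with SM&M1 asks what the loss of the kinase changes at the same sorted stage. No GIMAP gene passed in limma, and 2 had an unadjusted p under 0.05, where 1.69% of all genes were called, 0.430% higher and 1.26% lower, and 17.9% had such a p. The groups did not overlap for 2 members, Gimap3 and Gimap7, as for 20.3% of all genes. Gimap3 had a signal of 2144, 2011 and 1691 in Tak1-deficient SM&M1, against 3629, 3966 and 3220 in SM&M1. Each Tak1-deficient value lay below each SM&M1 value, and the log2 fold change was -0.88 ± 0.27 (SE, n = 3 per group, adjusted p = 0.12). It passed in the fit without PreDP replicate 1, which had a Gimap3 signal of 123 (adjusted p = 0.0225). The SM&M1 arrays also serve in both comparisons before, so the values of Gimap3 in the 3 are not independent. Centring each array on its median moved the median of all genes here to -0.09, against 0.05, and the share of calls that were higher to 13.4%, against 25.4%.

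Gimap7 had a signal of 1141, 1682 and 913 in Tak1-deficient SM&M1, against 1855, 1699 and 2133 in SM&M1, with a log2 fold change of -0.64 ± 0.22 (limma adjusted p = 0.165). The highest of the 3 was the outlying replicate 2. Without that array Gimap7 was at -0.88 and passed (adjusted p = 0.0276), which was its lone call in this comparison. Its other, dimmer probe set was at 0.59 ± 0.42 with all arrays and at 0.18 ± 0.41 without that array (adjusted p = 0.48 and 0.86), a setting added after the data were seen. The sign was opposite to that of the brighter probe set in both settings, and the other probe set was not called in either.

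The remaining members did not pass. Gimap4 had a signal of 14609, 25303 and 12947 in Tak1-deficient SM&M1, a spread that took in all SM&M1 values, with a log2 fold change of -0.06 ± 0.25. Gimap8 had a signal of 9506, 4598 and 8222 in Tak1-deficient SM&M1, where the outlying replicate 2 was the lowest of all arrays but those of PreDP, with a log2 fold change of -0.27 ± 0.22. The log2 fold change of Gimap5 was 0.32 ± 0.20, with Gimap1 at -0.21 ± 0.18, Gimap6 at 0.08 ± 0.18 and Gimap9 at -0.08 ± 0.16. The sum of the 13 macrophage markers was 1069, 6121 and 6622 in Tak1-deficient SM&M1, against 4817, 708 and 908 in SM&M1. The innate-like marker sum was 997, 2887 and 3912 in Tak1-deficient SM&M1, against 3684, 461 and 420 in SM&M1. The part of either sum in these values was not tested.

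Set against PostDP, Tak1-deficient SM&M1 cells had 1 GIMAP gene that passed, where 7.16% of all genes were called higher and 3.72% lower. The groups did not overlap for 4 members, as for 30.0% of all genes, and 4 had an unadjusted p under 0.05, as did 26.6% of all genes. Gimap4 rose by 1.63 ± 0.25 in log2 terms (SE, 3 samples in each group, limma adjusted p = 0.0013), with the same value of 1.63 in its other probe set. The call was lost when the 2 groups were fitted alone (adjusted p = 0.0625 without a replicate block). Gimap3 had a log2 fold change of 0.62 ± 0.27 (adjusted p = 0.158), and passed without PreDP replicate 1 (adjusted p = 0.0336). Those of Gimap5 (-0.52 ± 0.20) and Gimap9 (-0.52 ± 0.16) had adjusted p of 0.124 and 0.0538. This comparison shares its arrays with those before, so its values are not independent of theirs. Centring moved the median of all genes to -0.01, against 0.10. The macrophage marker sum was 1069, 6121 and 6622 in Tak1-deficient SM&M1, above the 995 to 1030 of PostDP. The innate-like marker sum was 997, 2887 and 3912 in Tak1-deficient SM&M1, against 924 to 1016 in PostDP, and the part of either in the result was not tested.

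Ordered by their levels over the 5 groups, the members differed. Gimap3 was the 1 member whose neighbouring groups never overlapped, with means of 7.88 ± 0.69 in PreDP, 10.31 ± 0.20 in PostDP, 10.93 ± 0.18 in Tak1-deficient SM&M1, 11.82 ± 0.15 in SM&M1 and lastly 12.67 ± 0.15 in M2 (SD over 3 samples). Gimap7 and Gimap3 were higher without overlap at each of the 3 stage steps, as were 127 of all genes tested, or 1.07%. For Gimap7 this held in the brighter probe set only. Its other probe set overlapped between PostDP (6.16 to 7.26) and SM&M1 (6.06 to 7.11). With Tak1-deficient SM&M1 also between PostDP and SM&M1 without overlap, as for Gimap3, the pattern held for 22 of all genes tested, or 0.185%. That pattern is the order Gimap3 itself showed, so Gimap3 meets it by construction and the share is a description, not a test. Gimap4 formed 3 levels, PreDP at 5.88 ± 0.21, PostDP at 12.41 ± 0.22, and Tak1-deficient SM&M1, SM&M1 and M2 between 14.04 and 14.21 with overlapping ranges. Gimap8 and Gimap6 had PreDP apart at the low end, at 11.93 and 12.07, and their highest means in PostDP, at 13.20 and 13.16. Among the other groups, each overlapped the next in order of means. For Gimap6, however, PostDP (13.01 to 13.27) overlapped Tak1-deficient SM&M1 (12.62 to 13.21) alone. It lay above every SM&M1 sample (12.56 to 12.96) and every M2 sample (12.60 to 12.83).

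Gimap9 had PostDP apart at the high end, at 12.46 ± 0.04, and the other groups between 11.84 and 12.03. In Gimap5 PostDP was highest too, at 9.47 ± 0.24, but its range overlapped that of M2, at 9.03 ± 0.28. Gimap1 had PreDP at the top, at 11.76 ± 0.12, then M2 at 11.50 ± 0.11, and the other groups between 10.89 and 11.13 with overlapping ranges. The span between the lowest and the highest group mean was 8.32 for Gimap4, 4.79 for Gimap3 and 2.58 for Gimap7, and between 0.62 and 1.27 for the other members.

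**Figure D3:**
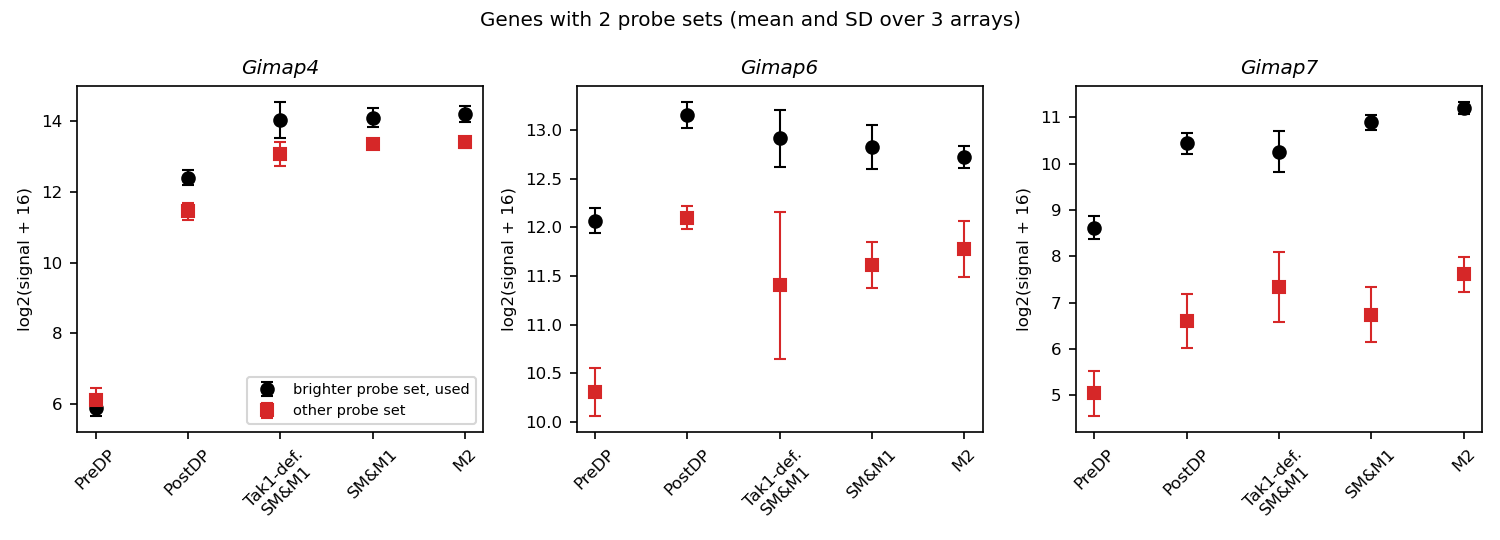
Mean and SD over 3 arrays of both probe sets of Gimap4, Gimap6 and Gimap7 as log2(signal + 16) on the vertical axes for the 5 groups on the horizontal axes; black circles are the brighter probe sets, used for the tests, and red squares the others. The probe sets of Gimap4 run in parallel, while for Gimap7 they differ in the order of Tak1-deficient SM&M1 and SM&M1.

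Of the 8 genes 3 had 2 probe sets each. For Gimap4 both had the same sign in all 5 comparisons, and for Gimap7 in 3 of the 5. For Gimap6 the probe sets had opposite signs in M2 against SM&M1 (-0.10 and 0.17) and in Tak1-deficient SM&M1 against SM&M1 (0.08 and -0.20), none of them called. With the mean of all probe sets the count of GIMAP genes called was the same in the first 4 comparisons and 2 in the last, where Gimap9 was added.

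**Figure D4:**
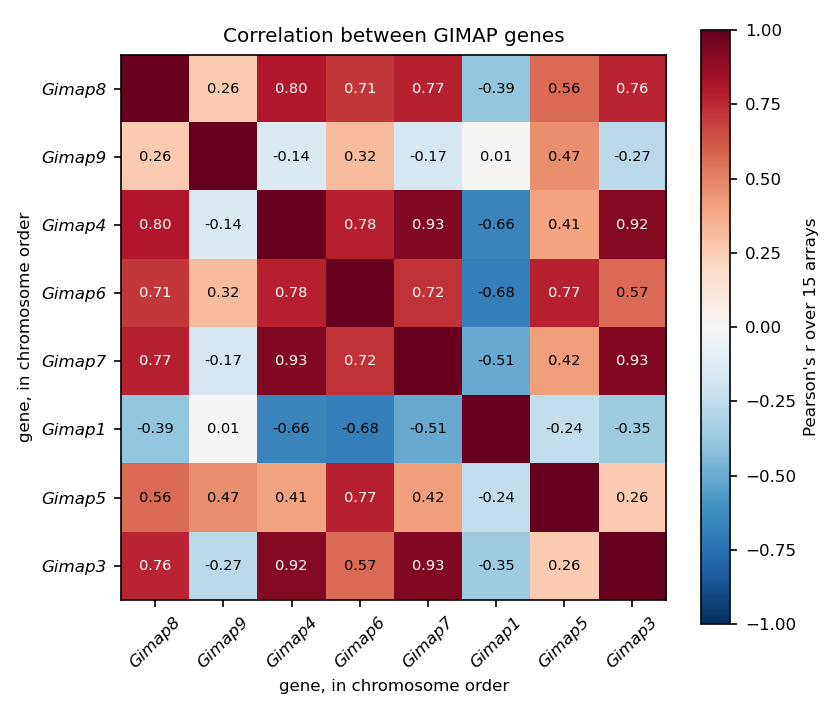
Pearson correlation over 15 arrays between the log2 levels of each pair of GIMAP genes, both axes in the order of the genes on the chromosome; red is positive and blue negative. Gimap4, Gimap7 and Gimap3 correlate at 0.918 to 0.928, and Gimap1 is negative with 6 of the 7 other genes.

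Over the 15 arrays the members varied together to different degrees. The points share groups of 3 arrays, so differences between group means enter every value. Gimap4 and Gimap7 correlated at 0.928, Gimap7 and Gimap3 at 0.925 and Gimap4 and Gimap3 at 0.918, although they are not next to each other on the chromosome. Gimap6 and Gimap5 correlated at 0.767. Gimap1 was at -0.684 with Gimap6 and -0.661 with Gimap4, and the paralogs and direct neighbours Gimap5 and Gimap3 were at 0.264. Leaving out Tak1-deficient SM&M1 replicate 2 moved Gimap8 most, with Gimap1 to -0.658 (-0.385 over 15 arrays), with Gimap4 to 0.945 (0.80 over 15 arrays) and with Gimap6 to 0.911 (0.707 over 15 arrays).

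Some members were among the genes most like another member. Among the 100 of 11871 tested genes with the highest correlation to it, Gimap7 had 2 other members, Gimap3 2 and Gimap5 1, and the remaining 5 had none. Whether these counts exceed those of other genes was not tested. Without Tak1-deficient SM&M1 replicate 2 Gimap7 had 2, Gimap8, Gimap6 and Gimap5 1 each, and Gimap3 0. The 5 genes most like the mean profile of the 8, over 15 arrays, were Nipal1 (r = 0.96), the kinase gene Stk17b (0.956), Otulinl (0.952), Lysmd2 (0.951) and the receptor accessory gene Ramp3 (0.944). Without Tak1-deficient SM&M1 replicate 2 the same 5 genes led, with r from 0.946 to 0.961. Stk17b, for instance, had a mean of 12.14 ± 0.05 in PreDP, 13.72 ± 0.07 in PostDP and between 13.27 and 13.55 in the other groups.

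Single members had other closest genes. Gimap4 was most like the transcriptional repressor gene Bach2 (r = 0.989), Gpr146 (0.988) and Crybg1 (0.987). Gimap3 was most like Smad7, an inhibitor of TGFβ signalling (0.985), the adducin gene Add3 (0.98) and Ripor2 (0.971). Gimap8 was most like the receptor-induced gene Egr3 (0.969), Gimap6 like the kinase gene Prkcq (0.956) and the surface receptor gene Cd5 (0.947), and Gimap7 like B4galnt1 and Ubash3b (0.955 each). For Gimap1 the closest was Prex1 (0.94), for Gimap9 Vezf1 (0.897) and for Gimap5 the malic enzyme gene Me2 (0.88). Without Tak1-deficient SM&M1 replicate 2 several of these places went to other genes, with Tgfbr2 (0.986) first for Gimap3, Retreg1 (0.992) for Gimap4, Ggct (0.969) for Gimap7 and Cd6 (0.958) for Gimap6.

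None of the tested genes on either side of the cluster was called. Of the 5 nearest named protein-coding genes on each side 9 were measured and 6 tested: Lrrc61, Repin1, Zfp775, Tmem176b, Tmem176a and the amine oxidase gene Aoc1. In limma 0 of the 6 were called in any of the 5 comparisons. In the order given above, 14.9%, 12.0%, 2.33%, 1.69% and 10.9% of all genes were called. With 6 genes, 0 calls is not far from these shares. In the same order 2, 1, 2, 1 and 0 had an unadjusted p under 0.05, as did 25.7%, 24.5%, 10.3%, 17.9% and 26.6% of all genes. The median log2 fold change of the 6 was -0.14 in PostDP against PreDP, where that of the GIMAP genes was 1.18. The 6 values there ran from -0.64 to 1.10.

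Genes of proteins reported to bind GIMAP proteins were set beside them: members of the BCL2 family of death regulators and the LC3 and GABARAP proteins of autophagy. Of 11 such genes 10 were tested. In PostDP against PreDP 2 rose and 2 fell, where 7.35% of all genes were called higher and 7.57% lower. Bcl2, which protects cells from death, rose by 3.15 ± 0.23, and Bcl2l11, which encodes the death-promoting BIM, rose by 2.02 ± 0.22 in log2 terms, while Bcl2l1, which encodes BCL-XL, had a log2 fold change of -1.01 ± 0.15 and the pro-apoptotic gene Bad at -0.88 ± 0.21 (limma adjusted p from 1.1e-06 to 0.011). In SM&M1 against PostDP Bcl2 rose by 0.91 ± 0.23 and Bcl2l11 was at -1.15 ± 0.22 (adjusted p = 0.0217 and 0.00376), and in M2 against SM&M1 Bcl2l11 was at -1.30 ± 0.22 (adjusted p = 0.00732). The autophagy genes did not pass in any comparison. Gabarapl2, the partner of Gimap6, averaged between 11.72 and 11.94 in all groups. In Tak1-deficient SM&M1 against SM&M1 0 of the 10 passed in limma, and 4 had an unadjusted p under 0.05. Of all genes 1.69% were called there and 17.9% had such a p. In Tak1-deficient SM&M1 against PostDP Bcl2 was at 1.04 ± 0.23 and Bcl2l11 at -1.28 ± 0.22 (limma adjusted p = 0.013 and 0.00268).

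Genes of thymocyte maturation, survival and exit, 12 of them tested, were set beside the family as well. Il7r, the receptor gene of a survival cytokine, was at 6.00 in PreDP, 10.26 in PostDP, 13.18 in Tak1-deficient SM&M1, 13.25 in SM&M1 and 12.83 in M2, an order of groups like that of Gimap4 up to SM&M1. Klf2, a transcription factor gene needed for exit, was at 7.63 in PreDP, 7.70 in PostDP, 9.82 in Tak1-deficient SM&M1, 10.78 in SM&M1 and 12.32 in M2. S1pr1, the exit receptor gene, was at -2.53 ± 0.47 and Klf2 at -0.97 ± 0.20 in Tak1-deficient SM&M1 against SM&M1 (limma adjusted p = 0.0182 and 0.0261). They were the 2 genes of this list that passed there, where 0.430% of all genes were called higher and 1.26% lower. S1pr1 averaged 7.12 ± 1.23 in Tak1-deficient SM&M1 and 9.65 ± 0.21 in SM&M1 (SD). Both calls come from the fit of all groups. A fit of only these 2 groups called 5 of all genes, against 201, and 0 with a replicate block. In PostDP against PreDP the largest called log2 fold changes were Ptcra (-4.88 ± 0.78), Rag2 (-4.45 ± 0.95), Il7r (4.25 ± 0.26) and Cd69 (4.18 ± 0.36). For SM&M1 against PostDP they were Rag1 (-3.92 ± 0.93), Klf2 (3.08 ± 0.20), Ccr7 (3.01 ± 0.27) and Il7r (2.99 ± 0.26). For M2 against SM&M1 they were Cd24a (-2.50 ± 0.56), Ccr9 (-2.30 ± 0.35), S1pr1 (2.10 ± 0.47) and Klf2 (1.53 ± 0.20). The list had 4 higher and 2 lower in PostDP against PreDP, where 7.35% of all genes were called higher and 7.57% lower. In SM&M1 against PostDP it had 6 and 2 (7.84% and 4.14% of all genes). In M2 against SM&M1 it had 2 and 2 (0.952% and 1.38%). In Tak1-deficient SM&M1 against PostDP it had 5 and 0 (7.16% and 3.72%).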

How the data were processed

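RNA from sorted thymocytes was amplified in a single round, labelled with biotin and measured on 1 array per sample, per the labels' protocols. The authors deposited linear signal intensity per probe set, and the algorithm behind these intensity values is not given in the sources used here. Without the lowest and highest 2% of probe sets, the mean of each array was 500, and the scale was kept as deposited. Tests ran on log2(intensity + 16), which understates fold changes of dim genes. Of 45101 probe sets, 34945 had 1 gene in the platform annotation, and 34741 of these took the RefSeq symbol of their Entrez number (GRCm38.p6). For each of 18193 genes the brightest probe set on average was kept, and 11871 genes passed the filter of a signal above the array median in 3 or more arrays.

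Groups are those of the labels, which call the samples biological replicates but name no animals, so the p-values cover the spread among these samples only and this may be technical. The main model, in limma 3.58.1 under R 4.3.3, held the 5 groups with a mean each, and p-values were adjusted after Benjamini and Hochberg across the 11871 genes, with calls at an adjusted p under 0.05. The script was tested on simulated data. All GIMAP genes are named, with up to 4 called genes per partner or maturation list and comparison, genes of either list also being named for their levels, and the genes closest by Pearson's r. Members and lists were chosen with earlier results of these data known.

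Deviations from group means of same-numbered samples correlated at 0.339, 0.275 and 0.411 between PostDP and PreDP and at 0.553, 0.436 and 0.326 between M2 and SM&M1, so the replicate numbers of the labels were taken to pair these samples. As alternatives, the groups of a comparison were fitted alone, with and without replicate number as a block, and the full model was given that block. Further alternatives were other filters, quantile normalization, centring on the median, the mean of all probe sets, a pseudocount of 1, trend and robust options, and leaving out each array.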

Additional observations from a re-analysis of the deposited data

How the results depend on the processing

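Of 1000 refitted GIMAP fold changes under 25 alternatives in 5 comparisons, 970 kept their side of the threshold, 16 lost a call, 14 gained one, and 0 of the called ones changed sign. In PostDP against PreDP the count of GIMAP genes called was 7 and became 4 with each array centred on its median and 6 with no filter, where Gimap1 was lost (adjusted p = 0.0683). Leaving out single arrays gave 6 to 8 there, with 8 without Tak1-deficient replicate 2, and 2 to 4 in SM&M1 against PostDP, where the main count was 3 and the other settings gave 2 to 4. In M2 against SM&M1 it was 0, and 1 in fits of only these groups with or without a replicate block. Leaving out single arrays gave 0 to 1 there, and 0 to 1 for the comparison of Tak1-deficient with control SM&M1. In Tak1-deficient SM&M1 against PostDP it was 1, and 0 when the groups were fitted alone with or without a replicate block (Gimap4 adjusted p = 0.18 and 0.0625). It was 2 with a filter at the 75th percentile, the mean of all probe sets, or trend and robust options, and 1 to 2 without single arrays, the second gene being Gimap9 except without PreDP replicate 1, where it was Gimap3. With the block in the fit of all 15 arrays no count of GIMAP genes called was changed. The cause of these changes was not tested. Between the fits of only the groups compared, the replicate block changed 1 GIMAP call, that of Gimap9 in SM&M1 against PostDP (adjusted p = 0.088 with it and 0.0364 without). In SM&M1 against PostDP and in both Tak1 comparisons same-numbered samples correlated from -0.244 to 0.124, so the numbers did not pair them.

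Counts over all genes moved by over 1.5 times under some settings. That of PostDP against PreDP (1772) was 2703 with a replicate block in a fit of the groups compared, 1171 when PostDP replicate 3 and 2992 when Tak1-deficient replicate 2 was left out. That of SM&M1 against PostDP (1423) was 2467 in a fit of only the groups, 825 with centring, 871 to 906 without PostDP replicate 2 or 3 or SM&M1 replicate 3, and 2726 without Tak1-deficient replicate 2. That of M2 against SM&M1 (277) was 428 in a fit of only the groups, 594 with the block, 132 with centring, and 82 to 141 without any 1 of the SM&M1 arrays or of M2 replicates 2 and 3, and 672 without Tak1-deficient replicate 2. That of Tak1-deficient SM&M1 against SM&M1 (201) was 5 in a fit of only the groups, 0 with the block, 114 with no filter, 97 with centring, and 65 to 93 without any 1 of the SM&M1 arrays, and 347 without Tak1-deficient replicate 2. That of Tak1-deficient SM&M1 against PostDP (1292) was 176 in a fit of only the groups, 0 with the block, 606 with centring, and 674 to 778 without single PostDP arrays. With 3 arrays a group, precision is limited by their number.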
